A study of Mus musculus with 24 samples.

Results

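The genes Nr1d1 and Nr1d2 encode the nuclear receptors REV-ERB alpha and REV-ERB beta, and all probe sets that the platform annotation maps to either gene were taken as members. These were 2 of 22180 genes and 2 of 34390 probe sets, 1 for Nr1d1 (probe set 17268884, Entrez gene 217166) and 1 for Nr1d2 (probe set 17303625, Entrez gene 353187). Neither is shared with another gene. Both passed the filter on low signal, which kept 15526 of 22180 genes for testing. The study asked which daily transcript rhythms of epididymal white adipose tissue (eWAT) remain in mice when the clock of the suprachiasmatic nucleus (SCN), the brain pacemaker, is disabled. MUT mice had the genotype Syt10-Cre/Cre x Bmal1-flox/- and CON mice Syt10-Cre/Cre x Bmal1-+/-, so both genotypes carried homozygous Syt10-Cre and 1 null allele of Bmal1. All mice spent 2 weeks in a light-dark cycle and were then moved to constant darkness, and fat was collected on day 2 of darkness every 6 h, at CT1, CT7, CT13 and CT19 (CT, circadian time). With 2 genotypes and 4 times there were 8 groups of 3 mice, each mouse on its own array.

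What limits the groups as a model is that Cre follows the Syt10 promoter, whose activity includes the SCN without being restricted to it, and that CON mice lack 1 Bmal1 allele in every cell. The labels give no ages. The treatment text places CT1 at 27 h after lights off without giving the light schedule, so the circadian times could not be checked against it and stand here, peak times included, as labelled. The titles and treatment text name eWAT, while the source field names mediobasal hypothalamus. The 10 of 10 tested adipocyte markers had a median rank at the 99.5th percentile of signal. Of 13 hypothalamus and neuron markers 9 were tested, with a median rank at the 30.4th percentile, and Pomc, Gad1 and Slc17a6 were below the filter. Array medians lay between 7.80 and 7.94 on the log2 scale. Their group means were lower in MUT than in CON at each time (7.82 to 7.85 in MUT, 7.87 to 7.91 in CON). The interquartile range of all signals of an array was on average higher in MUT at each time (2.06 to 2.12 in MUT, 1.98 to 2.06 in CON). Precision is limited by the small number of mice.

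REV-ERB proteins are repressors that bind DNA sites shared with the activating ROR receptors, recruit the NCOR and HDAC3 corepressor complex and use haem as their ligand. In the circadian loop, BMAL1 with CLOCK or NPAS2 activates Nr1d1 and Nr1d2 through E-box sites, and the REV-ERB proteins in turn repress Arntl, the gene for BMAL1, together with Clock, Npas2, Cry1 and Nfil3. In adipose tissue REV-ERBs are known for roles in adipogenesis and lipid metabolism.

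The promoter windows of both genes are shown because the time courses of both genes are set beside those of E-box and REV-ERB target genes. Each is a RefSeq window (GRCm38.p6) that begins 250 bases before and ends 50 bases after the annotated start, printed 5′ to 3′ on the gene's strand. Capitals mark the core site AGGTCA shared by ROR and REV-ERB receptors. Nr1d1 lies at chr11:98775328-98775627 on the minus strand and Nr1d2 at chr14:18239057-18239356 on the minus strand.
Nr1d1: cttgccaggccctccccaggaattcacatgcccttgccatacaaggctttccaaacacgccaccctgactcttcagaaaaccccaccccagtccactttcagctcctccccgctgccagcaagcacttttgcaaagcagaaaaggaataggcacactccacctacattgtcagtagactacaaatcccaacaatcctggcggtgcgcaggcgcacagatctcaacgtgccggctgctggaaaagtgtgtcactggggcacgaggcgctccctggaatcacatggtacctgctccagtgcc
Nr1d2: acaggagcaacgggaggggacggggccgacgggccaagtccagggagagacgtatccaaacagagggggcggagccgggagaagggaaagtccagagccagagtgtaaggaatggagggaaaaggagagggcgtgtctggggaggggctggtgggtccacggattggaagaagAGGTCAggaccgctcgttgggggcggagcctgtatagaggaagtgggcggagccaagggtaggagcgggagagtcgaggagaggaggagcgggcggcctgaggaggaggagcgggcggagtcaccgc

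The Nr1d2 window held 1 match to AGGTCA, which began 77 bases before the start, and the Nr1d1 window held none. On either strand AGGTCA occurred in 16.3% of 32851 promoter windows of the same length. Neither window held the E-box CACGTG (in 7.15% of windows), the D-box TTANGTAA (2.32%), the extended core site TAGGTCA (2.61%), which contains AGGTCA, or the direct repeat RevDR2 (3 windows). RevDR2 was searched only as an exact direct repeat of the core site. Repeats with differing letters were not searched for, so their presence in either window was not tested. An absent match says only that the letters searched are not in this window. The G and C content was 56.3% for Nr1d1 and 65.7% for Nr1d2, against a median of 52.7% over all windows.

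Nr1d1 moved strongly across the day in both genotypes, with its low point at a different time. In MUT fat the log2 signals of Nr1d1 were 11.70, 11.80 and 11.69 at CT1, 10.80, 10.90 and 10.78 at CT7, 10.34, 9.80 and 9.84 at CT13, and 11.95, 11.81 and 11.24 at CT19. In CON fat they were 11.81, 12.13 and 12.19 at CT1, 12.38, 12.06 and 12.25 at CT7, 10.14, 9.73 and 10.31 at CT13, and 9.54, 9.12 and 9.61 at CT19. MUT mice were high at CT19 and CT1 and lowest at CT13, whereas CON mice were high at CT1 and CT7 and lowest at CT19. The genotypes overlapped at CT13 and did not overlap at CT1, CT7 or CT19, although the gap at CT1 was small. The share of all genes that separate in this way was not counted, so this is description only.

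**Figure D1:**
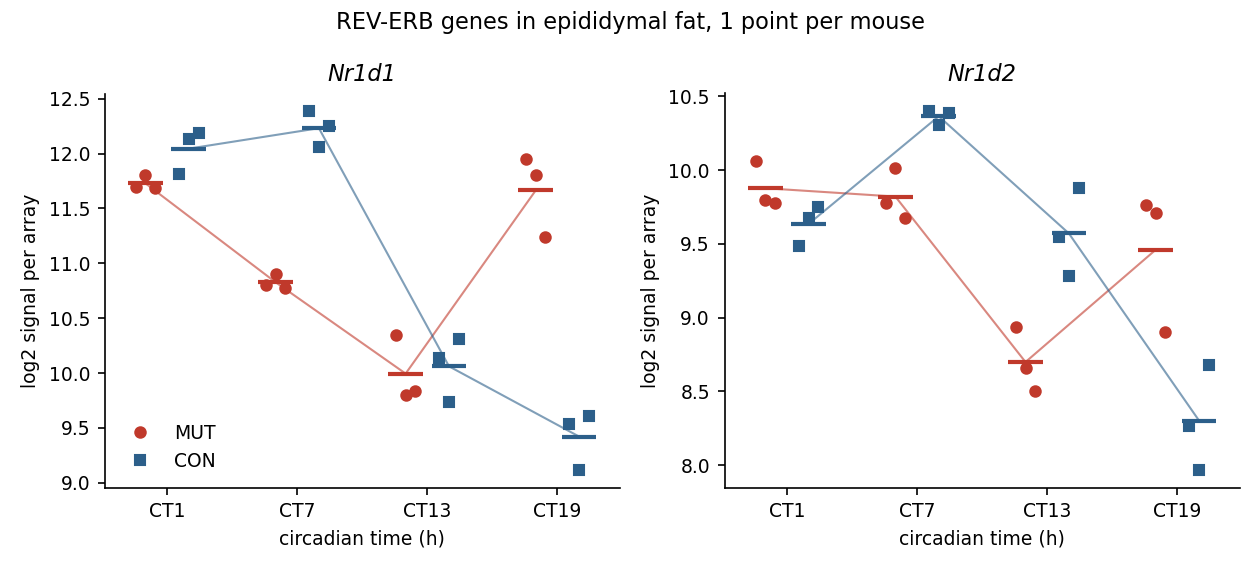
Log2 signal per array (vertical axes) against circadian time in hours for Nr1d1 (left) and Nr1d2 (right), 1 point per mouse, MUT as circles left of CON as squares; horizontal bars are means of 3 mice, joined by lines. At CT19 the MUT mice of Nr1d1 lie between 11.24 and 11.95 and the CON mice between 9.12 and 9.61, and the lowest MUT means stand at CT13 for both genes.

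The group means of Nr1d2 spanned a smaller log2 range than those of Nr1d1. In MUT fat the log2 signals of Nr1d2 were 10.06, 9.80 and 9.77 at CT1, 9.78, 10.01 and 9.67 at CT7, 8.94, 8.66 and 8.50 at CT13, and 9.76, 9.71 and 8.91 at CT19. In CON fat they were 9.48, 9.67 and 9.75 at CT1, 10.40, 10.31 and 10.39 at CT7, 9.55, 9.28 and 9.88 at CT13, and 8.26, 7.97 and 8.68 at CT19. MUT mice were high at CT1 and CT7 and lowest at CT13, and CON mice peaked at CT7 and were lowest at CT19. The genotypes did not overlap at any of the 4 times, by a narrow margin at CT1. As for Nr1d1, this is description only, without the share of all genes that separate. In MUT at CT19 the third mouse, at 8.91, stood below the other two, and the same mouse was the lowest of its group for Nr1d1.

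The distance between the highest and the lowest of the 4 group means gives the size of the daily change without a fitted curve. For Nr1d1 it was 1.73 on the log2 scale in MUT (3.33-fold) and 2.81 in CON (7.01-fold), the 6th largest of 15526 genes in MUT and the largest in CON. For Nr1d2 it was 1.18 in MUT (2.26-fold) and 2.06 in CON (4.18-fold), ranks 17 and 5. The spread between mice of a group was large for both genes, with a pooled SD of 0.24 for Nr1d1 and 0.27 for Nr1d2, at percentiles 97.5 and 98.3 of all genes. In bulk tissue, fewer cells of a type and less RNA per cell cannot be told apart.

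The genotype comparison at each time asks how loss of the SCN clock alters the level of these repressor genes in fat at matched circadian time. All adjusted p-values of the gene comparisons are from limma with Benjamini-Hochberg adjustment over all tested genes, and values are log2 differences ± SE with 3 mice per group. At CT7 Nr1d1 was lower in MUT, with means of 10.83 ± 0.07 in MUT and 12.23 ± 0.16 in CON (SD) and a difference of -1.40 ± 0.17 (0.378-fold, adjusted p = 0.000137). At CT19 it was higher in MUT, with 11.66 ± 0.38 in MUT and 9.42 ± 0.27 in CON (SD), a difference of 2.24 ± 0.17 (4.73-fold, adjusted p = 8.43e-08) that had the smallest p of all genes at that time. Nr1d1 thus passed the test in opposite directions 12 h apart. Genes called at CT7 were 4.05% of those tested and at CT19 2.74%.

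At CT1 and CT13 Nr1d1 did not pass the test. It averaged 11.73 ± 0.06 in MUT and 12.04 ± 0.20 in CON (SD) at CT1, a difference of -0.32 with a 95% interval from -0.67 to 0.04 (adjusted p = 0.500 in limma). At CT13 it averaged 9.99 ± 0.30 in MUT and 10.06 ± 0.30 in CON (SD), a difference of -0.07 with an interval from -0.42 to 0.29 (adjusted p = 0.841 in limma). Of all genes 0.0451% were called at CT1 and 0.322% at CT13. At both times the interval includes 0.

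Nr1d2 was higher in MUT at CT19 and lower at CT13. At CT19 it averaged 9.46 ± 0.48 in MUT and 8.30 ± 0.36 in CON (SD), and the difference of 1.16 ± 0.19 (2.23-fold) had an adjusted p of 0.00233 in limma. At CT13 it averaged 8.70 ± 0.22 in MUT and 9.57 ± 0.30 in CON (SD), and the difference of -0.87 ± 0.19 had an adjusted p of 0.0467 in limma. The call at CT13 is close to the threshold: in a fit with the replicate letters as a block its adjusted p was 0.0652, and it was lost when any of 15 of the 24 arrays was left out, among them every CON array of CT1 and CT7 and every MUT array of CT7, with adjusted p up to 0.221.

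At the earlier times the Nr1d2 difference did not pass. At CT7 it averaged 9.82 ± 0.17 in MUT and 10.37 ± 0.05 in CON (SD), a difference of -0.54 with a 95% interval from -0.94 to -0.15 (unadjusted p = 0.00857, adjusted p = 0.103 in limma). Without the third MUT mouse of CT19 the adjusted p at CT7 was 0.0454. At CT1 it averaged 9.88 ± 0.16 in MUT and 9.64 ± 0.14 in CON (SD), a difference of 0.24 with an interval from -0.15 to 0.63 (adjusted p = 0.675 in limma).

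**Figure D2:**
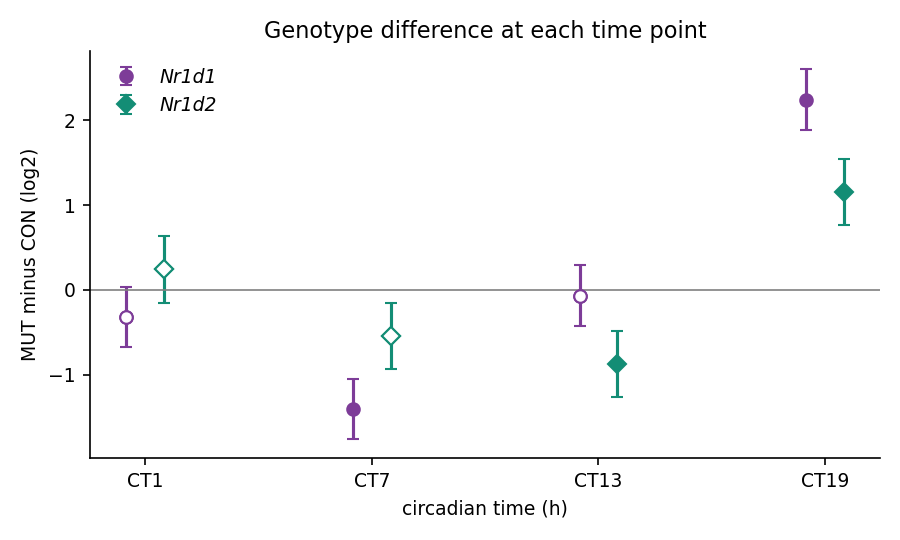
MUT minus CON in log2 units (vertical axis) at the 4 circadian times for Nr1d1 (circles) and Nr1d2 (diamonds), with 95% confidence intervals of the limma model as bars and filled symbols for an adjusted p under 0.05. Nr1d1 runs between -1.40 at CT7 and 2.24 at CT19, and Nr1d2 between -0.87 at CT13 and 1.16 at CT19.

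Averaged over the 4 times, neither gene differed past the threshold. The daily mean of Nr1d1 differed by 0.11 with an interval from -0.06 to 0.29 (adjusted p = 0.329 in limma), and that of Nr1d2 by -0.004 with an interval from -0.20 to 0.20 (adjusted p = 0.976). In this comparison 21.7% of all genes were called. The genotype differences past the threshold were those at single times.

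A 24-h cosine was fitted to the 4 group means, and its size is given as the log2 peak-to-trough with the moderated F test of limma. Nr1d1 had a rhythm of 1.93 ± 0.17 with its peak at CT23.3 ± 0.34 h (SE) in MUT (adjusted p = 9.54e-06) and of 3.44 ± 0.17 with its peak at CT4.65 ± 0.19 h in CON (adjusted p = 6.75e-11). Nr1d2 had a rhythm of 1.23 ± 0.19 with its peak at CT2.14 ± 0.59 h in MUT (adjusted p = 0.00558) and of 2.06 ± 0.19 with its peak at CT6.88 ± 0.35 h in CON (adjusted p = 1.91e-06). Rhythms were called in 0.348% of genes in MUT and in 17.1% in CON. Both genes are therefore among the 54 genes called in MUT and the 2650 called in CON.

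The difference of the rhythms was tested itself, as the vector difference of the fitted cosines, which covers timing and size together. It was 3.66 ± 0.24 for Nr1d1 (adjusted p = 2.72e-08 in limma), the largest of all genes, and 2.03 ± 0.27 for Nr1d2 (adjusted p = 0.000766), rank 8. Of all genes 1.44% were called.

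The steps between neighbouring times locate the daily change. In MUT, Nr1d1 changed by -0.90 ± 0.17 between CT1 and CT7 (adjusted p = 0.107 in limma, where no gene was called and 1138 had an unadjusted p under 0.05; 0.0453 without MUT replicate 3 of CT19 and 0.0355 with array weights, which count noisier arrays less), by -0.83 ± 0.17 between CT7 and CT13 (adjusted p = 0.0466), by 1.67 ± 0.17 between CT13 and CT19 (adjusted p = 2.50e-05) and by 0.06 ± 0.17 between CT19 and CT1 (adjusted p = 0.925). In CON it changed by 0.19 ± 0.17 between CT1 and CT7 (adjusted p = 0.633), by -2.17 ± 0.17 between CT7 and CT13 (adjusted p = 8.18e-08), by -0.64 ± 0.17 between CT13 and CT19 (adjusted p = 0.103) and by 2.62 ± 0.17 between CT19 and CT1 (adjusted p = 3.47e-09). The Nr1d1 rise that passed the test thus lay between CT13 and CT19 in MUT and between CT19 and CT1 in CON. Over these 4 steps in turn, 0%, 0.161%, 0.258% and 0.0644% of genes were called in MUT and 1.23%, 6.12%, 0.393% and 1.86% in CON. The MUT fall between CT7 and CT13 was lost when any of 17 of the 24 arrays was left out, all 3 MUT arrays of CT1 and of CT7 among them, with adjusted p up to 0.347. It was also lost under 7 of 10 other alternatives, with adjusted p between 0.0590 and 0.119, among them 0.0987 with a score of mesothelium markers as a covariate.

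The steps of Nr1d2 had another pattern of sizes, some larger and some smaller than those of Nr1d1. In MUT Nr1d2 fell between CT7 and CT13 by 1.12 on the log2 scale (adjusted p = 0.00800 in limma), a call that ended without the second MUT mouse of CT7 (adjusted p = 0.0985) or the third of CT13 (0.0855). The MUT change between CT13 and CT19 was 0.76 ± 0.19 (adjusted p = 0.0870, and 0.0108 without the third MUT mouse of CT19 or 0.0315 with array weights). In CON it fell by 0.79 between CT7 and CT13 (adjusted p = 0.0145), a call that ended without the first CON mouse of CT7 (0.0633) or the second of CT13 (0.0651). It fell further in CON by 1.27 between CT13 and CT19 (adjusted p = 0.00218), and was higher by 1.33 ± 0.19 at CT1 than at CT19 (adjusted p = 0.000847). The other steps did not pass: in MUT the change was -0.06 ± 0.19 between CT1 and CT7 (adjusted p = 0.978) and 0.42 ± 0.19 between CT19 and CT1 (adjusted p = 0.405). In CON it was 0.73 ± 0.19 between CT1 and CT7 (adjusted p = 0.0578), which passed without CON replicate 3 of CT13, CON replicate 2 or 3 of CT19 or MUT replicate 3 of CT19 (adjusted p down to 0.0185). That step also passed under 5 of 10 other alternatives, with adjusted p between 0.00809 and 0.0478.

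MUT and CON steps were then compared directly through the interaction. Between CT13 and CT19 the step was larger in MUT by 2.31 ± 0.24 for Nr1d1 (adjusted p = 3.76e-05 in limma) and by 2.03 ± 0.27 for Nr1d2 (adjusted p = 0.000334), where 0.483% of genes were called. Between CT19 and CT1 the difference was -2.56 ± 0.24 for Nr1d1 (adjusted p = 5.57e-06) and -0.92 ± 0.27 for Nr1d2 (adjusted p = 0.123, and 0.0179 without MUT replicate 3 of CT19 or 0.0349 with array weights), where 0.573% were called. Between CT7 and CT13 it was 1.34 ± 0.24 for Nr1d1 (adjusted p = 0.0253, up to 0.0978 when 1 of 8 arrays was left out, all 3 MUT arrays of CT7 among them, and 0.0561 with trended and robust variance) and -0.33 ± 0.27 for Nr1d2 (adjusted p = 0.783), against 0.103% called. Between CT1 and CT7 neither gene passed, with -1.09 ± 0.24 for Nr1d1 (adjusted p = 0.158, and 0.0361 with array weights) and -0.79 ± 0.27 for Nr1d2 (adjusted p = 0.494), against 0.0193% called.

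The 8 group means of each gene were sorted. Neighbours in such an order are picked from the data and lie close by construction, so a missing call between them carries no weight. For Nr1d1 the order ran, high to low, CON CT7, CON CT1, MUT CT1, MUT CT19, MUT CT7, CON CT13, MUT CT13 and CON CT19. Its only neighbours past the threshold were MUT CT19 and MUT CT7, which differed by 0.84 ± 0.17 (adjusted p = 0.0246 in limma, with 0.831% of genes called), and this call ended without any single MUT array of CT7 or without MUT replicate 1 or 2 of CT19 (adjusted p up to 0.163). With the mesothelium score as a covariate it ended too (0.78, adjusted p = 0.392). For Nr1d2 the order was CON CT7, MUT CT1, MUT CT7, CON CT1, CON CT13, MUT CT19, MUT CT13 and CON CT19. No pair of neighbours in that order passed, and the smallest adjusted p among them was 0.0870, for MUT CT19 and MUT CT13. CON CT13 minus CT1, a neighbouring pair for Nr1d2, was called in 7.1% of genes.

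Each MUT group was also set beside the CON group sampled 6 h later, a comparison chosen after seeing the data. For Nr1d1 the differences were -0.50, 0.77, 0.57 and -0.38 for MUT at CT1, CT7, CT13 and CT19, and for Nr1d2 they were -0.49, 0.25, 0.40 and -0.18. None passed the threshold in limma for either gene (without MUT replicate 3 of CT19 the first did in both, with adjusted p of 0.0368 for Nr1d1 and 0.0449 for Nr1d2, and without MUT replicate 1 of CT13 it did for Nr1d1, with 0.0483), where 9.91%, 0%, 0% and 6.09% of genes were called. The first also passed under quantile normalization (0.0431 for Nr1d1 and 0.0453 for Nr1d2) and, for Nr1d1, with array weights (0.0389). The second, MUT CT7 beside CON CT13, passed for Nr1d1 with arrays shifted to equal medians (0.0409) and with array weights (0.0211). At CT7 and CT13 of MUT, where no gene was called, 2969 and 908 genes had an unadjusted p under 0.05, Nr1d1 at both times (0.000189 and 0.00295) and Nr1d2 at CT13 (0.0475). Other pairs in the order were MUT CT7 with CON CT1 (0.277% of genes called) and MUT CT19 with CON CT13 (19.4%), and Nr1d2 did not pass in either (adjusted p = 0.738 and 0.686).

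Whether both genes follow the same time course was examined with the log2 difference Nr1d1 minus Nr1d2 within each array, in which a factor common to both probe sets of an array cancels. The height of this difference compares different probes and carries no meaning, so only its change over time is used. At CT1, 7, 13 and 19 in turn it averaged 1.85 ± 0.19, 1.01 ± 0.11, 1.30 ± 0.13 and 2.20 ± 0.12 in MUT (SD, n = 3 each). In CON the averages in the same order were 2.41 ± 0.07, 1.87 ± 0.12, 0.49 ± 0.09 and 1.12 ± 0.17 (SD, n = 3 each). The difference was largest at CT19 in MUT and at CT1 in CON, in both genotypes ahead of the fitted peaks of the genes themselves.

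**Figure D3:**
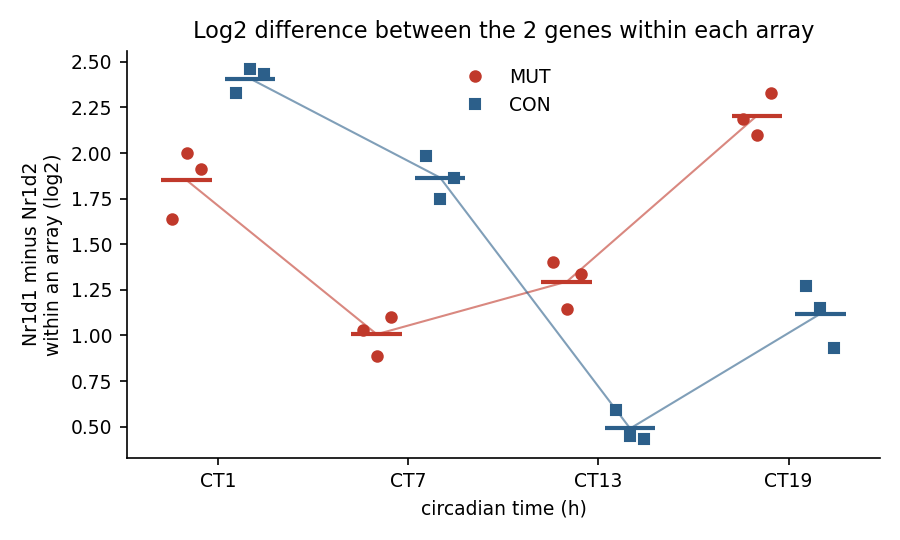
Nr1d1 minus Nr1d2 within an array in log2 units (vertical axis) against circadian time in hours, 1 point per mouse, MUT as circles left of CON as squares; bars are means of 3 mice, joined by lines. MUT runs between 1.01 at CT7 and 2.20 at CT19 and CON between 0.49 at CT13 and 2.41 at CT1, with points of a group close to their mean.

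The within-array difference had a fitted 24-h peak-to-trough of 1.32 with its peak at CT20.7 in MUT and of 2.06 with its peak at CT2.42 in CON. In an exact permutation test of the 12 arrays of a genotype over the 4 times (369600 assignments), p was 2.16e-05 in each genotype, the smallest these permutations can give. The vector difference between genotypes was 2.38, with p = 2.5e-05 in an exact permutation of genotype within times (160000 assignments). The time courses of Nr1d1 and Nr1d2 thus differed from each other in each genotype. A shift in time or change in size that both genes share also changes their log2 difference. The permutation of genotype cannot separate this from a changed relation between the genes, so no such change is read from it.

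Deviations of single mice from their group mean tended to run the same way in both genes. They correlated over 24 arrays with Pearson r = 0.874 (p = 0.00011) and Spearman rho = 0.883 (p = 6e-05), by permutation within groups with 100000 draws, two-sided. Without the 2 arrays farthest from the median for Nr1d1, the second CON mouse of CT13 and the third MUT mouse of CT19, r was 0.814. Among MUT arrays alone r was 0.874 (permutation p = 0.0206) and among CON arrays alone 0.879 (permutation p = 0.00246). Single mice departed from it: in MUT at CT1 replicate 2 was the highest of its group in Nr1d1 (deviation 0.0725) and below its group mean in Nr1d2 (-0.0783). This was 1 relation tested, so no adjustment over several applies. Among 15525 other genes each of the 2 had the highest such r with the other. The deviations also correlated with the interquartile range of all signals of an array, with r = 0.53 for Nr1d1 and 0.58 for Nr1d2. With the median over a marker list in each array they correlated less. These r values were 0.38 and 0.40 for Nr1d1 and Nr1d2 with macrophage markers, 0.37 and 0.38 with adipocyte markers, and 0.10 and 0.25 with mesothelium markers. The part of these measures in the relation was not tested.

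**Figure D4:**
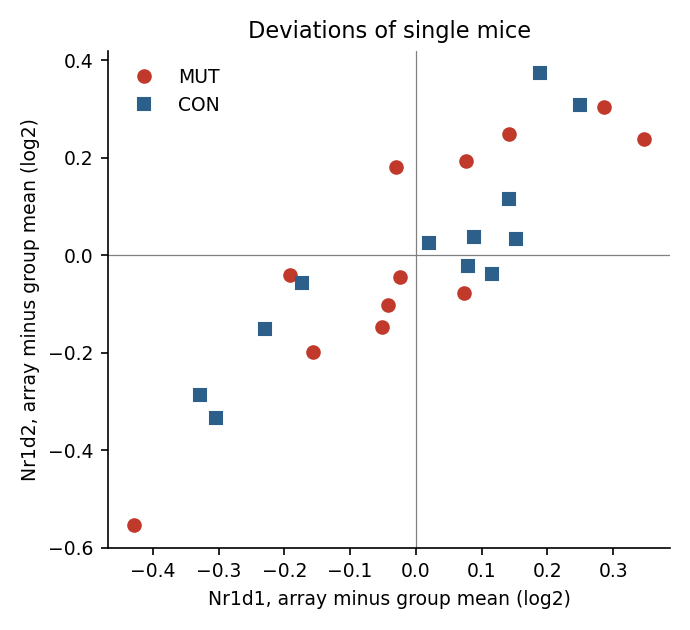
Deviation of each array from the mean of its group in log2 units, Nr1d1 on the horizontal and Nr1d2 on the vertical axis, MUT as circles and CON as squares, 1 point per mouse. The points lie along a rising line (r = 0.874 over 24 arrays), with the third MUT mouse of CT19 at the lower left.

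Clock genes that REV-ERB proteins are known to repress formed a list of 6, of which 5 were tested. The list includes Arntl, which is Bmal1, the gene engineered in these mice, and its alleles differ between MUT and CON. The part of these alleles in the Arntl signal was not tested. In the genotype comparison none of the 5 was called at CT1. At CT7 Clock, the BMAL1 partner, was higher in MUT by 0.45 ± 0.09 (adjusted p = 0.00672 in limma) and Nfil3, a D-box repressor, by 0.40 ± 0.10 (adjusted p = 0.0281, lost without any 1 MUT array of CT7 or CON replicate 1 or 3 of CT7). So 2 of 5 were called higher and none lower, while 2.98% of all genes were called higher and 1.08% lower. Among the members not called, Arntl averaged 8.19 in MUT and 8.07 in CON. Npas2 and Cry1 lay the other way, with 8.36 in MUT and 8.43 in CON for Npas2, and 8.47 in MUT and 8.58 in CON for Cry1. The median of the list at CT7 was 0.12, and that of all genes 0.00011. Nr1d1 was lower in MUT at the same time. Whether the calls in this list are linked to the REV-ERB levels was not tested, here or at CT13 and CT19.

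At CT13, where Nr1d2 was lower in MUT and Nr1d1 did not pass the test, 3 of the 5 were higher in MUT and none lower, while 0.232% of all genes were called higher and 0.0902% lower. Arntl, the engineered gene, averaged 9.52 ± 0.06 in MUT and 8.36 ± 0.29 in CON (SD), a difference of 1.16 ± 0.14 (adjusted p = 0.000775 in limma). Npas2, which encodes another BMAL1 partner, differed by 1.09 ± 0.17 (adjusted p = 0.00867, lost without the first CON mouse of CT13). Clock differed by 0.47 ± 0.09 (adjusted p = 0.0184). Its call was lost without that mouse, without the third MUT mouse of CT13 or with array weights. All 3 calls at CT13 were lost when the 6 arrays of CT13 were fitted alone, a fit in which 1 gene of all was called. Nfil3 differed by 0.39 ± 0.10 (adjusted p = 0.0819) and Cry1, a repressor of the BMAL1 complex, by -0.002 ± 0.09 (adjusted p = 0.993). The list median at CT13 was 0.47, and that of all genes 0.006.

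At CT19, where both REV-ERB genes were higher in MUT, 2 of the 5 were lower and none higher, while 0.812% of all genes were called lower and 1.93% higher. Cry1 averaged 8.37 ± 0.17 in MUT and 8.98 ± 0.13 in CON (SD), a difference of -0.62 ± 0.09 (adjusted p = 0.000793 in limma). Nfil3 averaged 8.80 ± 0.10 in MUT and 9.26 ± 0.06 in CON (SD), a difference of -0.45 ± 0.10 (adjusted p = 0.0232), a call lost without MUT replicate 1 or 2 or CON replicate 2 or 3 of CT19 or with the mesothelium covariate (0.0504). Arntl differed by -0.39 ± 0.14 (adjusted p = 0.119), Npas2 by -0.23 ± 0.17 (adjusted p = 0.436) and Clock by 0.18 ± 0.09 (adjusted p = 0.226). The list median was -0.39, and that of all genes -0.0003.

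**Figure D5:**
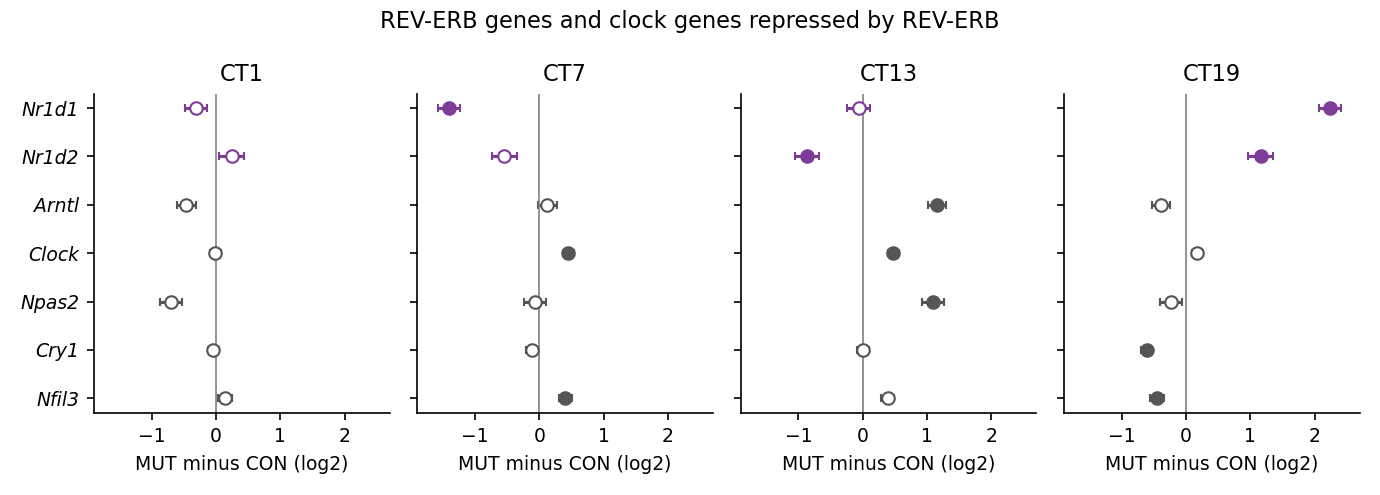
MUT minus CON in log2 units (horizontal axes, 1 panel per circadian time) for Nr1d1, Nr1d2 and the 5 tested clock genes repressed by REV-ERB, with SE bars and filled symbols for an adjusted p under 0.05. The repressed genes called at CT7 and CT13 lie at positive values and those called at CT19 at negative values, while both REV-ERB genes lie at positive values at CT19.

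Over the day, 4 of the 5 tested repressed clock genes had a 24-h rhythm in MUT and 5 of 5 in CON, while 0.348% of all genes were called in MUT and 17.1% in CON. In MUT the call for Clock was lost without replicate 1 of CT7 or of CT19 or with the mesothelium covariate (adjusted p = 0.178 in limma), and that for Nfil3 without replicate 3 of CT1. Arntl peaked at CT15.9 in MUT and at CT20.5 in CON, and Npas2 at CT17.3 in MUT and CT21.6 in CON. Cry1, the member not called in MUT, had a peak-to-trough of 0.37 ± 0.09 there (adjusted p = 0.108 in limma) and 0.52 ± 0.09 in CON (adjusted p = 0.00209). The rhythm difference was called in 4 of 5 (1.44% of all genes), the exception again being Cry1, and the call for Clock (adjusted p = 0.0474) was lost with any of 20 of the 24 arrays left out.

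Genes that share E-box or D-box control with the REV-ERB genes formed a list of 12, of which 11 were tested. Rhythms were called in 6 of 11 in MUT (0.348% of all genes) and 9 of 11 in CON (17.1%), with list medians of 0.86 in MUT and 1.07 in CON beside 0.13 and 0.18 for all genes in MUT and CON. Dbp, a D-box activator, was lower in MUT at CT7 (-0.83 ± 0.17, adjusted p = 0.00839 in limma) and at CT13 (-0.91 ± 0.17, adjusted p = 0.0184). Ciart, which encodes a repressor of the clock activators, was lower at CT7 and not called at the other times (-0.91 ± 0.07, adjusted p = 1.34e-07). At CT7 Wee1, a cell-cycle kinase gene, was higher (0.55 ± 0.13, adjusted p = 0.0183, lost without MUT replicate 2 or 3 or CON replicate 3 of CT7 or with the mesothelium covariate), so that 1 rose and 2 fell.

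At each of the other times the E-box and D-box genes called lay in 1 direction. At CT1 only 1 of 11 was called, higher (0.0322% of all genes were), namely Bhlhe40, an E-box repressor gene (1.16 ± 0.22, adjusted p = 0.0487 in limma, lost with any of 16 arrays left out). At CT13 4 of 11 were lower (0.0902% of all genes were), namely Per3, Dbp, Tef and Usp2, by values between -0.91 for Dbp and -0.56 for Usp2 (adjusted p = 0.0180 to 0.0184). All 4 calls were lost without CON replicate 1 of CT13, those of Per3, Dbp and Tef also without MUT replicate 3 and that of Usp2 without CON replicate 2 of CT13. They were lost as well when CT13 was fitted alone, and those of Per3, Dbp and Tef with array weights. At CT19 3 of 11 were lower (0.812% of all genes were), namely Bhlhe40 (-1.77 ± 0.22, adjusted p = 0.000190), Bhlhe41 (-1.07 ± 0.24, adjusted p = 0.0224, lost with any of 5 arrays of CT19 left out) and Usp2, a deubiquitinase gene (-0.60 ± 0.10, adjusted p = 0.00266). None of the 11 was called higher at CT19, where Dbp differed by 0.49 ± 0.17 (adjusted p = 0.0994) and both REV-ERB genes were higher.

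Rhythms called in partners and regulators of the REV-ERB proteins are set beside 17.1% of all genes in CON and 0.348% in MUT. Of all genes, 2.98% were called higher in MUT at CT7, and 21.7% were called in the daily mean. The lists are small, and none was tested against these shares. Of the ROR receptors, 2 of 3 were tested and neither Rora nor Rorb had a rhythm called in MUT or CON, and of their genotype differences only the daily mean of Rorb passed (-0.11 ± 0.04, adjusted p = 0.0448 in limma, lost with any of 16 arrays left out). Of the corepressor complex 4 of 6 were tested, with a rhythm called in 0 in MUT and 1 in CON, Tbl1x, which was higher in MUT at CT7 (0.34 ± 0.09, adjusted p = 0.0306, lost without replicate 2 or 3 of either genotype at CT7, under quantile normalization or with the mesothelium covariate). In the haem list 11 of 12 were tested, with a rhythm called in 0 in MUT and in 1 in CON, Ppox (0.39 ± 0.07, adjusted p = 0.00312), and none was called between genotypes at a single time. The rate-limiting enzyme gene of haem synthesis, Alas1, had a peak-to-trough of 0.57 ± 0.13 in MUT (adjusted p = 0.0903) and 0.30 ± 0.13 in CON (adjusted p = 0.221). Among 7 of 10 tested genes for turnover and kinases of REV-ERB, Mycbp2, a ubiquitin ligase gene, was higher in MUT at CT7 (0.65 ± 0.11, adjusted p = 0.00172) and in the daily mean (0.36 ± 0.05, adjusted p = 0.000575), and Huwe1 had a rhythm in CON (0.26 ± 0.06, adjusted p = 0.0108), 1 of 7.

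The daily mean was called in 21.7% of all genes, and its calls in these lists were not tested against that share. It was higher in MUT in 2 of 4 corepressor genes, Tbl1x (0.17 ± 0.04, adjusted p = 0.0130 in limma) and Tbl1xr1 (0.16 ± 0.05, adjusted p = 0.0302, lost with any 1 of 8 arrays left out). It was higher in 2 of 11 haem genes, Fech, which encodes the enzyme that inserts iron to form haem (0.16 ± 0.04, adjusted p = 0.0173), and Ppox (0.12 ± 0.04, adjusted p = 0.0274, lost with any 1 of 5 arrays left out). These 4 calls ended under quantile normalization and with the mesothelium covariate, with adjusted p between 0.0694 and 0.232. Of the repressed clock genes Clock was higher (0.27 ± 0.04, adjusted p = 0.00109) and Cry1 lower (-0.19 ± 0.05, adjusted p = 0.00740). Of the 11 E-box and D-box genes Ciart (-0.21 ± 0.04, adjusted p = 0.00159) and Usp2 (-0.20 ± 0.05, adjusted p = 0.0108) were lower. The calls of Cry1 and Usp2 ended with the mesothelium covariate (0.0618 and 0.112).

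Metabolic genes reported as REV-ERB targets in other work formed a list of 9, of which 7 were tested. A rhythm was called in 0 of 7 in MUT and 2 of 7 in CON, beside 0.348% of all genes in MUT and 17.1% in CON. The genes were Pck1 (1.16 ± 0.22, adjusted p = 0.00387 in limma) and Plin2 (0.39 ± 0.10, adjusted p = 0.0292, lost without CON replicate 2 or 3 of CT7 or CON replicate 2 of CT19, and under 3 of 10 other alternatives). In the daily mean 1 of 7 was lower in MUT, Ucp1 (-0.10 ± 0.03, adjusted p = 0.0453, lost with any 1 of 16 arrays left out). Pck1, a gene of glyceroneogenesis in fat, averaged 13.12 ± 0.06 in MUT and 12.02 ± 0.66 in CON at CT19 (SD). Its difference there was 1.10 ± 0.22 (adjusted p = 0.0140), lost without MUT replicate 1 or 2 or CON replicate 2 of CT19 or when CT19 was fitted alone. The CON mice of Pck1 at CT19 ran between 11.29 and 12.56, so the CON group was itself wide.

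Across all 24 arrays the gene most like Nr1d1 by Pearson r was Blcap (r = 0.896, with 0.844 over MUT arrays and 0.929 over CON arrays), followed by Shank3, Gba2, Pola2, Zer1 and Kdm3a, down to r = 0.864. The most opposite were Phlda3 (r = -0.867), Nfil3, Hdgf, Angptl8, Ppp1r3b and Ank, up to -0.813. For Nr1d2 the most alike were Tns2 (r = 0.935, with 0.927 over MUT arrays and 0.959 over CON arrays), Per1, Dbp, Nupr1l, 2010016I18Rik and Fam117b, down to 0.856. The most opposite were Arntl (r = -0.873), Mid1ip1, Dhx32, Angptl8, Nfil3 and Leo1, up to -0.836. Nr1d2 ranked 45th by likeness to Nr1d1 and Nr1d1 ranked 15th by likeness to Nr1d2 (r = 0.807), and Arntl had r = -0.482 with Nr1d1. The order depends on the arrays used: of the 6 genes most like Nr1d1, 1 was among the top 6 over MUT arrays alone and 0 over CON arrays alone, and of those most like Nr1d2, 3 were in each. Ank had r = -0.343 with Nr1d1 over MUT arrays and -0.956 over CON arrays. These r values describe 24 arrays that share the 8 groups and are not tests.

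Cell-type markers were set beside the REV-ERB genes because some moved with time and genotype. The score of an array was the median over the 9 mesothelium markers (9 of 9 tested) of the log2 signal minus each marker's mean. Its group means at CT1, 7, 13 and 19 in turn were 0.01, -0.22, 0.26 and 0.57 in MUT, and -0.28, -0.82, 0.07 and 0.26 in CON. Single arrays ran between -0.72 and 0.91 in MUT and between -0.85 and 0.44 in CON. With this score as a covariate, the differences of Nr1d1 were -1.45 at CT7 and 2.22 at CT19 and those of Nr1d2 -0.91 at CT13 and 1.09 at CT19, and the rhythms of Nr1d1 and Nr1d2 stayed past the threshold in MUT and CON. The covariate ended the MUT calls of Nr1d1 for CT13 minus CT7 and for CT19 minus CT7.

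Macrophage and fibroblast markers moved with time as well. The group mean of the same score for the 10 macrophage markers at CT1, 7, 13 and 19 in turn was -0.07, -0.20, 0.24 and 0.07 in MUT and -0.11, -0.28, 0.10 and 0.16 in CON. That of the fibroblast and preadipocyte markers (7 of 8 tested) was -0.08, -0.09, 0.11 and 0.17 in MUT and -0.05, -0.33, 0.08 and 0.18 in CON. Their part in the REV-ERB results was not tested.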

How the data were processed

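Per the labels' protocols, Trizol was used for RNA and biotin for labelling. The authors deposited log2 values per probe set, made with RMA and Affymetrix Expression Console per the submitters' processing notes, and their versions and the probes' genome build were not stated there. RMA compresses low signals, so small folds may be understated. Each gene was represented by its brightest probe set with 1 gene symbol, and a gene was tested if its mean signal reached the 30th percentile (7.42). Of 34390 probe sets 23521 had 1 symbol, 1814 several and 9055 none, and 193 symbols found no Entrez match. A cell-means model of the 8 groups (16 residual degrees of freedom) was fitted in limma 3.58.1 (R 4.3.3) over the 24 arrays, two-sided, threshold 0.05 after Benjamini-Hochberg adjustment over 15526 genes. Rhythms used cosine and sine contrasts of 24 h (2 degrees of freedom in the F test). Within-array differences and deviations used permutations over arrays in Python 3.11.15, and figures matplotlib 3.10.9. The models were tested on simulated data.

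The text names the members, all measured REV-ERB repressed clock genes, up to 4 members of every other list per comparison by smallest p, and the 6 highest and 6 lowest r per member. The lists were REV-ERB repressed clock genes, E-box and D-box clock genes, ROR receptors, corepressor complex, haem synthesis and breakdown, turnover and kinases, and metabolic targets. Marker lists were adipocyte, hypothalamus and neurons, and mesothelium (median percentile 60.1), and macrophage (75.7), fibroblast and preadipocyte (77.2), endothelium (90.3), smooth muscle and pericyte (77.7), T and B cell (22.4), epididymis (34.8) and brown adipocyte (16.5). Members and lists were chosen with earlier results of these data known. The alternatives were quantile normalization, a shift to equal medians, each array left out, the letters as a block, no filter or one at the 60th percentile, the mean of probe sets, array weights, trended and robust variance, arrays of 1 genotype or time alone, a mesothelium covariate and F tests without a cosine. The deviations within each genotype and the comparison with CON profiles moved by whole intervals were added after seeing the data. Nothing says whether the mice of a group share a litter or batch.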

Additional observations from a re-analysis of the deposited data

Results flagged for a closer look

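The interaction of genotype and time marked both genes. The step from CT7 to CT13 differed between MUT and CON by 1.34 for Nr1d1, a call that ended with any 1 of 8 arrays left out (adjusted p up to 0.0978 in limma) and with trended and robust variance (0.0561). The step from CT13 to CT19 differed by 2.31 for Nr1d1 and 2.03 for Nr1d2 on the log2 scale, by the limma test of the difference itself. The step from CT19 to CT1 differed by -2.56 for Nr1d1. The vector difference of the fitted 24-h rhythms was 3.66 for Nr1d1 and 2.03 for Nr1d2. The rhythm of Nr1d1 minus Nr1d2 within arrays differed between genotypes by 2.38 in the exact permutation test. A shift shared by both genes also gives such a difference, so it is not a result apart from the rhythm differences above.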

How the results depend on the processing

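Of 62 results on Nr1d1 and Nr1d2, 28 were past the threshold. Of these, 21 kept their call without each of the 24 arrays and under every alternative that applied to them. There were 12 alternatives in all, and not every one applied to each result. Nr1d2 at CT13 was -0.87 (adjusted p = 0.0467), with 0.0652 in the replicate block, 0.0615 without the filter, 0.0748 with trended and robust variance and 0.299 for CT13 alone, -0.73 (0.136) with array weights, and between -1.01 and -0.72 without 1 array. Nr1d2 at CT7 passed with array weights (-0.60, 0.0152) and for CT7 alone (-0.54, 0.00571), and lay between -0.64 and -0.47 without 1 array. Array weights turned Nr1d1 at CT13 to 0.11, the MUT difference of CT1 and CT19 to -0.060 for Nr1d1, MUT CT19 minus CON CT13 to 0.11 for Nr1d2 and the Nr1d2 daily mean to 0.047, which equal medians put at 0.031. Quantile normalization put CON CT13 minus CT1 of Nr1d2 at 0.016. Without 1 array, Nr1d1 at CT13 lay between -0.24 and 0.058, the Nr1d2 daily mean between -0.046 and 0.065, CON CT13 minus CT1 of Nr1d2 between -0.22 and 0.078, MUT CT7 minus CT1 of Nr1d2 between -0.15 and 0.034, MUT CT1 minus CT19 of Nr1d1 between -0.15 and 0.21, and Nr1d2 in MUT CT19 minus CON CT1 between -0.33 and 0.10 and minus CON CT13 between -0.26 and 0.17. These causes were not tested. The replicate block changed 1 other call, the MUT step of Nr1d1 between CT7 and CT13. Of 84 same-letter pairs of arrays from different groups, 17 correlated above 0.1 in their deviations from group means, with a median r of -0.016. Pairs with different letters were not computed, so this cannot show whether the letters pair the samples. Counts over all genes moved by more than 1.5 times. Rhythms in MUT numbered 54, with 26 to 141 without 1 array, 18 with the mesothelium covariate and 555 with array weights. Those in CON numbered 2650, with 1476 with the covariate and 4194 with array weights, and rhythm differences 223, with 119 to 371 without 1 array and 737 with array weights. Genes called at CT1, CT7, CT13 and CT19 numbered 7, 629, 50 and 425, with 0 to 18, 191 to 732, 4 to 196 and 36 to 623 without 1 array, and array weights gave 58, 2727 and 1642 at CT1, CT7 and CT19, while CT13 alone gave 1 and equal medians 116 at CT13. The covariate gave 218 at CT7, 170 at CT19 and 196 for the daily mean, which was 3365. Depth is not measured by arrays, and 3 mice per group set the precision.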

Other observations

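The MUT profile was set beside the CON profile moved by whole sampling intervals, a comparison chosen after seeing the data and given without a test. Against CON 6 h later, the root mean square of the 4 log2 differences was 0.573 for Nr1d1 and 0.349 for Nr1d2. At the same circadian time it was 1.33 for Nr1d1 and 0.783 for Nr1d2, at 12 h later 1.52 and 1.01 for Nr1d1 and Nr1d2, and at 18 h later 1.90 and 1.15.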
